A study of Mus musculus with 12 samples.

Results

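The cytosolic ribosomal protein genes were followed in mouse liver as a set of 37 genes of 17742 measured. They are the genes of the array's annotation whose symbol is Rpl or Rps with a number and at most a single letter a, x or l, together with Rplp0. Of these genes, 13 encode proteins of the small subunit, 23 encode proteins of the large subunit or paralogs of them, and Rplp0 encodes the base of the ribosomal stalk. The brightest probe stood for each gene, and 7 genes had more than 1 probe. Liver RNA was compared between 3 groups of mice whose labels give an age of 8 weeks. STZ+MENS mice were diabetic through STZ (streptozotocin, which destroys the beta cells of the pancreas) and received MENS, a treatment that the labels do not spell out, from a printed circuit board for 6 weeks, in sessions of 1 h on 5 days of each week. STZ mice were diabetic through the same agent without MENS, and Control mice had no treatment. Each group held 2 liver samples with 2 arrays each, so n = 2 per group throughout. The labels do not say that a sample is 1 animal, so p-values measure the spread between these samples only, and the sources used here give no strain or sex.

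Cytosolic ribosomal proteins assemble with ribosomal RNA into the small subunit, which decodes mRNA, and the large subunit, which joins amino acids. Their mRNAs are among the most abundant of a cell and most begin with a terminal oligopyrimidine tract, a run of C and T bases at the transcript's start through which mTORC1, a kinase complex that responds to insulin and amino acids, sets their translation. That control acts on translation more than on the amount of mRNA, and arrays measure only the mRNA. Some ribosomal proteins, among them Rpl5, Rpl11 and Rpl23, also bind MDM2, the ubiquitin ligase of p53, when ribosome assembly is disturbed.

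The sequences around the annotated gene starts are shown for 10 members. These had an unadjusted p under 0.05 in limma between STZ+MENS and STZ. A terminal oligopyrimidine tract begins at the transcript's first base. Each line gives 20 bases before and 20 bases from the start, 5′ to 3′ on the gene's strand, from RefSeq's GRCm38.p6 table. Capitals mark the longest run of C and T anywhere in the line. That run spans the annotated start in Rps24 and Rps21, and lies wholly before or after it in the other genes shown. Where a gene had several annotated starts, the start with the longest run was taken.

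Rpl22 (chr4:152324416-152324455, plus strand): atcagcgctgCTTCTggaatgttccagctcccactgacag
Rpl5 (chr5:107900508-107900547, plus strand): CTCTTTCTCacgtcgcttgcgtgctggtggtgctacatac
Rps24 (chr14:24490658-24490697, plus strand): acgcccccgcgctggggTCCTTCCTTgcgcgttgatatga
Rps27l (chr9:66946066-66946105, plus strand): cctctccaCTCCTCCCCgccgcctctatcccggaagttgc
Rps21 (chr2:180257359-180257398, plus strand): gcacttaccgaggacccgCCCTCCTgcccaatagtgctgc
Rps7 (chr12:28635934-28635973, minus strand): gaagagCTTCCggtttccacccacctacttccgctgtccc
Rpl19 (chr11:98026904-98026943, plus strand): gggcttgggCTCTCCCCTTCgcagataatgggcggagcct
Rps2 (chr17:24720043-24720082, plus strand): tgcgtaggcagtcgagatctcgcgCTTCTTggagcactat
Rps15a (chr7:118116128-118116167, minus strand): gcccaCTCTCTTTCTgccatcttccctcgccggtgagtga
Rpl6 (chr5:121204481-121204520, plus strand): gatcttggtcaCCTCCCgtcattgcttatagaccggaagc

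The first 7 of these genes were lower in STZ+MENS than in STZ and the last 3 were higher, and runs of 9 or more bases stood in both sets (Rpl5, Rps24, Rps27l and Rpl19; Rps15a). Of the 37 members, 32 had an entry in the start table. A run of at least 8 pyrimidines lay within these 40 bases in 14 of the 32 (43.8%), against 18.7% of the 13980 tested genes with an entry. The letters CCGGAAG or their reverse complement CTTCCGG are a core bound by ETS family factors such as GABP. They occurred in the table's 300 bases around any annotated start of the gene in 13 of the 32 (40.6%), against 14.3% of the tested genes with an entry. Genes with several annotated starts thus had more sequence in which to match. These are matches of letters at annotated starts and do not show where a transcript begins or what binds.

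Expression is given as log2 of the intensity plus an offset of 50, and differences are on that scale. The members' mean intensities lay between 55.3 for Rps3a1 and 143755 for Rpl8. Probes differ in how brightly they bind, so levels are compared between samples and not between genes. Against a median probe intensity of 770, 23 members were as bright or brighter and 14 were dimmer, although ribosomal protein mRNAs are abundant. The dim members' differences are understated by the offset. The SD between the 2 arrays of a sample had a median of 0.11 over the members, and the SD between samples of a group had a median of 0.18, against 0.14 and 0.17 over all genes. Across genes, the correlation was 0.986 to 0.996 between arrays of a sample and 0.958 to 0.985 between arrays of different groups.

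No ribosomal protein gene passed an adjusted p of 0.05 in limma's model in any of the 3 comparisons after Benjamini-Hochberg adjustment across the whole table. The count was 0 of 37 for STZ against Control, where 0.00564% of all genes were called, 0 for STZ+MENS against STZ, where 0% were called, and 0 for STZ+MENS against Control, where 0.00564% were called. At an unadjusted p under 0.05, 5, 10 and 5 members stood in the same order, against 17%, 25.4% and 18% of all genes. The members' shares at that threshold were therefore near or below the background, and the statements on single members that follow describe values that did not pass. With all 12 arrays in the model and the sample as a random block, 2, 7 and 2 of the 37 members were called. They stood beside 1204, 3079 and 1336 of 17742 genes, so the members' shares were near or below those of all genes. Rps21 and Rps27l were called as higher in STZ than in Control. Called as lower in STZ+MENS than in STZ were Rpl5, Rpl19, Rpl22, Rps7, Rps21, Rps24 and Rps27l. Rpl5 and Rpl22 were called as lower in STZ+MENS than in Control. That fit counts the arrays of a sample toward its degrees of freedom and uses the same correlation between them for all genes. The samples stay 2 per group, so these calls have no more samples behind them than the main fit.

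**Figure D1:**
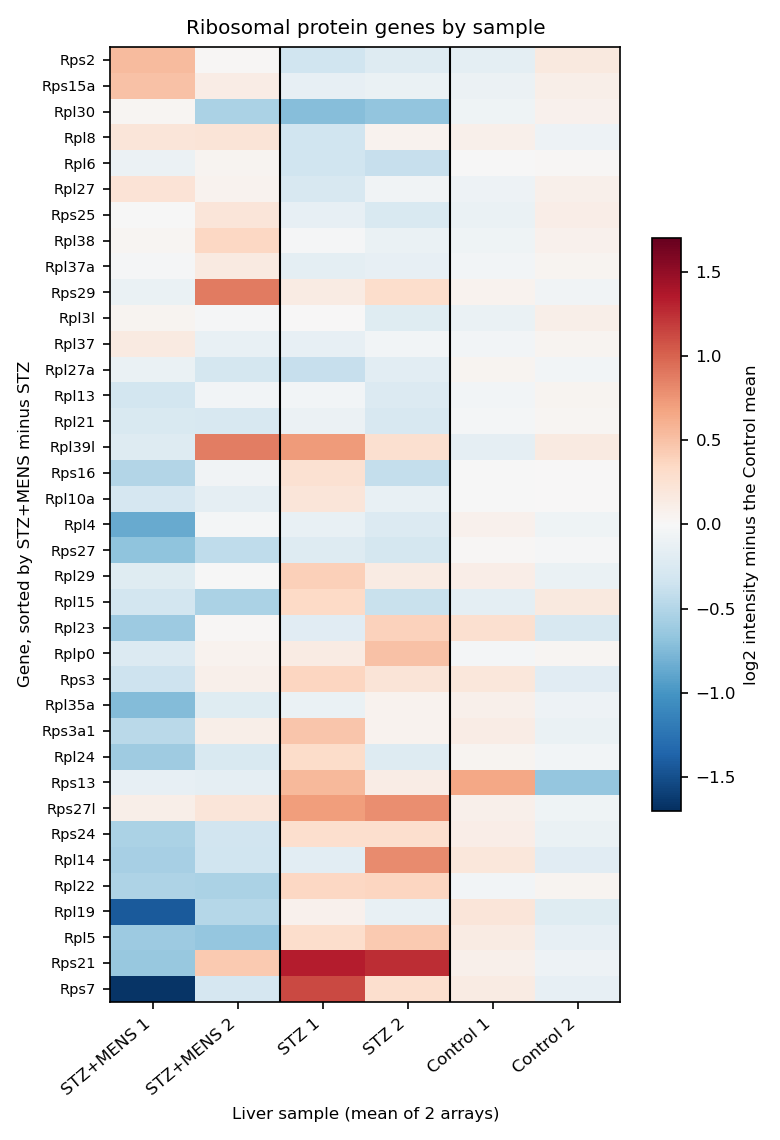
Log2 intensity of each of the 37 ribosomal protein genes minus its Control mean (colour scale), with genes as rows sorted by the difference between STZ+MENS and STZ and the 6 liver samples as columns. STZ+MENS sample 1 holds the lowest values, those of Rps7 and Rpl19, and the highest values are those of Rps21 in both STZ samples.

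Between STZ and Control livers no ribosomal protein gene passed, and the members with the smallest p lay in both directions. Rps27l, a paralog of Rps27 that p53 is known to induce, was 1.68-fold higher in STZ, and Rps21, a small-subunit protein, was 2.45-fold higher. Rpl30, a large-subunit protein, was 1.62-fold lower in STZ. The members' median log2 difference was -0.03, beside -0.02 over all genes, and 20 members lay below 0 (54.1%, beside 52.4% of all genes) and 17 above. At an unadjusted p under 0.05, 3 members were higher, beside 8.48% of all genes, and 2 were lower, beside 8.49%.

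Rps27l had log2 intensities of 16.47 and 16.54 in STZ, against 15.84 and 15.68 in Control. Both STZ samples lay above both Control samples, and the difference was 0.75 ± 0.14 (SE, adjusted p = 0.117 in limma). Rps21 stood at 13.58 and 13.50 in STZ and 12.33 and 12.17 in Control, a difference of 1.29 ± 0.34 with adjusted p = 0.164 in limma. It was the only 1 of 37 members that was higher by 2-fold or more in this comparison, beside 378 of 17742 genes. Lower by that much were 0 members, beside 1.16% of all genes. With STZ and Control fitted alone, Rps21 was the 1 of 37 members called (adjusted p = 0.0294 in limma), among 181 of 17742 genes called in all. Leaving out either STZ+MENS sample gives that same fit.

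Rpl22, an RNA-binding large-subunit protein that the ribosome can do without, stood at 12.39 and 12.41 in STZ, against a mean of 12.04 ± 0.06 (SD) in Control. Its difference was 0.36 ± 0.13. Rpl5, which carries 5S ribosomal RNA into the large subunit, had 11.47 and 11.62 in STZ and 11.32 and 11.04 in Control (0.37 ± 0.16). In these and in 9 other members the STZ samples lay above the Control samples without overlap, 11 of 37 in all, beside 24% of all genes. Rps24, needed to mature the small subunit's RNA, differed by 0.29 ± 0.16 and Rplp0 by 0.32 ± 0.18.

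Members lower in STZ without overlap also numbered 11, beside 28.2% of all genes. Rpl30 had 12.12 and 12.17 in STZ and 12.76 and 12.92 in Control, a difference of -0.69 ± 0.21 (adjusted p = 0.2 in limma). Rpl6 had 9.93 and 9.88 in STZ and 10.26 and 10.29 in Control (-0.37 ± 0.14). The others that led this direction were Rpl27a (-0.28 ± 0.15), Rps27, the zinc-binding paralog of Rps27l (-0.26 ± 0.15), Rpl21 (-0.19 ± 0.14) and Rps2, which lines the mRNA's entry (-0.28 ± 0.22). Rps27 and Rps27l thus had differences of opposite sign in this comparison, with adjusted p = 0.446 in limma for Rps27. Between STZ+MENS and STZ both were lower, by -0.30 and -0.59.

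MENS-treated STZ livers had lower values than STZ livers in 24 of the 37 genes (64.9%), where 43.6% of all genes were lower. The median log2 difference of the members was -0.26, beside 0.06 over all genes. Rps7, Rps21 and Rpl5 were 3.19-fold, 2.61-fold and 2.02-fold lower, and these 3 were the members lower by 2-fold or more, beside 3.84% of all genes. Without STZ+MENS sample 1 the log2 differences of Rps7 and Rps21 were -0.99 and -0.84, under 2-fold, and with the mean of its probes Rps7 differed by -0.61. The samples did not overlap for 16 members that were lower, beside 23.9% of all genes, and for 9 that were higher, beside 34%. At an unadjusted p under 0.05, 7 members were lower (12.8% of all genes) and 3 were higher (12.6%).

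Rpl22 gave the smallest p of the members. It stood at 11.52 and 11.51 in STZ+MENS, against 12.39 and 12.41 in STZ, a difference of -0.89 ± 0.13 (adjusted p = 0.0595 in limma). Rpl5 stood at 10.56 and 10.51 in STZ+MENS, against 11.47 and 11.62 in STZ, a difference of -1.01 ± 0.16 with the same adjusted p. For both genes all 4 STZ+MENS arrays lay below all 4 STZ arrays. Rps24 had 10.38 and 10.60 in STZ+MENS and 11.21 and 11.21 in STZ (-0.72 ± 0.16, adjusted p = 0.0722 in limma).

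Rps27l had 15.86 and 15.96 in STZ+MENS, against 16.47 and 16.54 in STZ, a difference of -0.59 ± 0.14 (adjusted p = 0.0815 in limma). Rps21 had 11.61 and 12.70 in STZ+MENS, against 13.58 and 13.50 in STZ, a difference of -1.39 ± 0.34 (adjusted p = 0.0848 in limma). The STZ+MENS samples of Rps21 thus lay further from each other than the STZ samples did. This comparison and that of STZ against Control share the 2 STZ samples, so the opposite signs of Rps27l and Rps21 in the 2 comparisons are not separate observations. The last of the 7, Rpl19, which bridges the subunits, had 6.87 and 7.81 in STZ+MENS, against 8.37 and 8.17 in STZ (-0.93 ± 0.33).

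**Figure D2:**
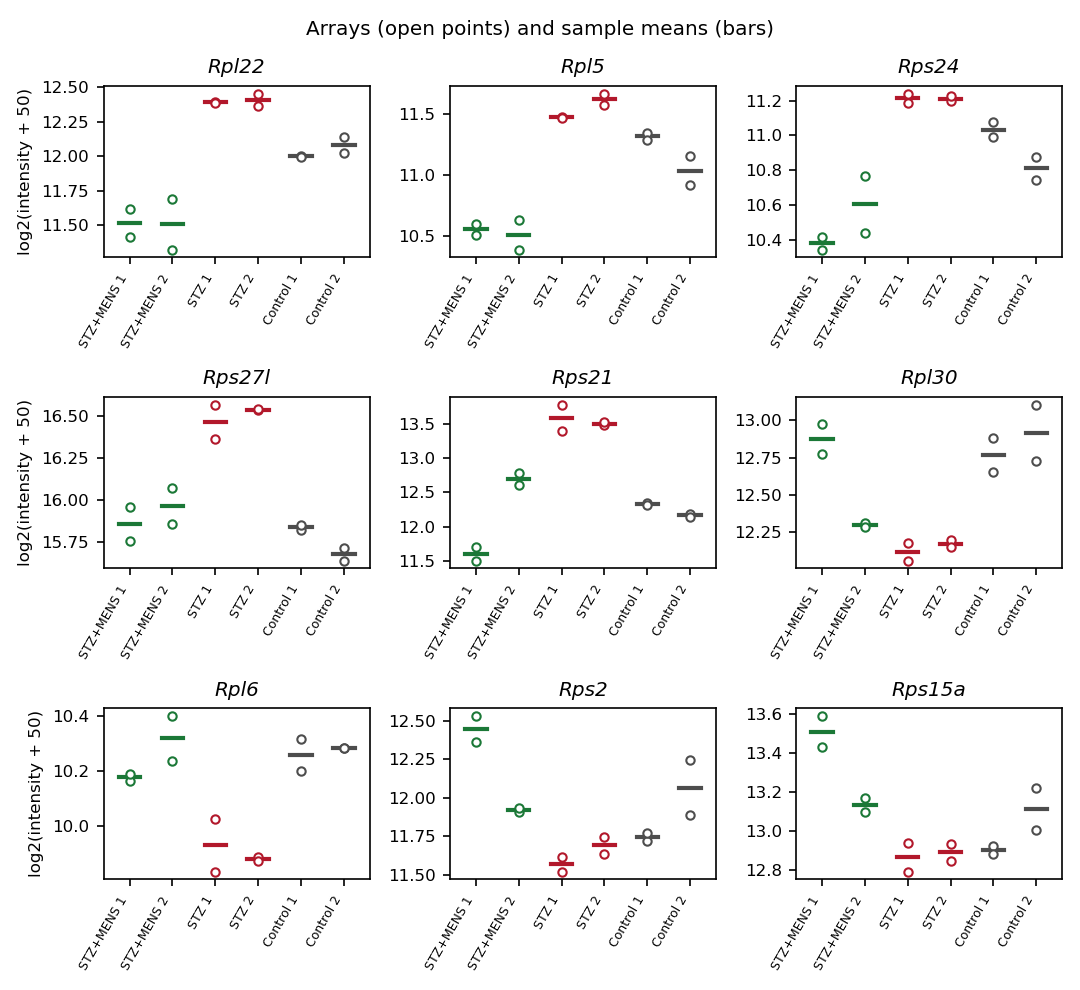
Log2(intensity + 50) of 9 ribosomal protein genes on each array (open points), with bars at the mean of a sample's 2 arrays and samples along the horizontal axis. Rpl22, Rpl5, Rps24, Rps27l and Rps21 were lowest in STZ+MENS or Control and highest in STZ, while Rpl30 and Rpl6 were lowest in STZ.

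Members higher in STZ+MENS than in STZ were small- and large-subunit genes with smaller differences. Rps2 had 12.45 and 11.92 in STZ+MENS, against 11.57 and 11.69 in STZ (0.55 ± 0.22). Rps15a had 13.51 and 13.13 in STZ+MENS, against 12.87 and 12.89 in STZ (0.44 ± 0.18). Rpl6 had 10.18 and 10.32 in STZ+MENS, against 9.93 and 9.88 in STZ (0.34 ± 0.14). Their adjusted p in limma was 0.183 to 0.188. Without STZ+MENS sample 1, Rps2 and Rps15a differed by 0.29 and 0.25. The remaining 6 that did not overlap were Rpl30 (0.44 ± 0.21), Rpl8, which lies near the catalytic centre (0.36 ± 0.18), Rpl27 (0.31 ± 0.16), Rps25 (0.30 ± 0.16), Rpl38 (0.26 ± 0.17) and Rpl37a (0.22 ± 0.14). Rpl30 had 12.88 and 12.30 in STZ+MENS, against 12.12 and 12.17 in STZ, and differed by 0.15 without STZ+MENS sample 1. Rpl8 had 17.30 and 17.32 in STZ+MENS, against 16.75 and 17.16 in STZ, and differed by 0.15 without STZ sample 1. Rpl27 had 8.96 and 8.79 in STZ+MENS, against 8.46 and 8.67 in STZ, and differed by 0.20 without STZ sample 1.

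Both subunits held members of either sign. Of the 13 small-subunit genes, 9 were lower in STZ+MENS than in STZ with a median of -0.43, and of the 23 large-subunit genes, 14 were lower with a median of -0.17. The stalk base gene Rplp0, often used as an unchanging standard, had 12.16 and 12.45 in STZ+MENS, against 12.53 and 12.88 in STZ (-0.41 ± 0.18). By brightness, 12 of the 14 members dimmer than the median probe were lower, with a median of -0.28, beside 42.5% of all genes of that brightness. Of the 23 brighter members 12 were lower, with a median of -0.26, beside 44.3% of all genes of that brightness.

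**Figure D3:**
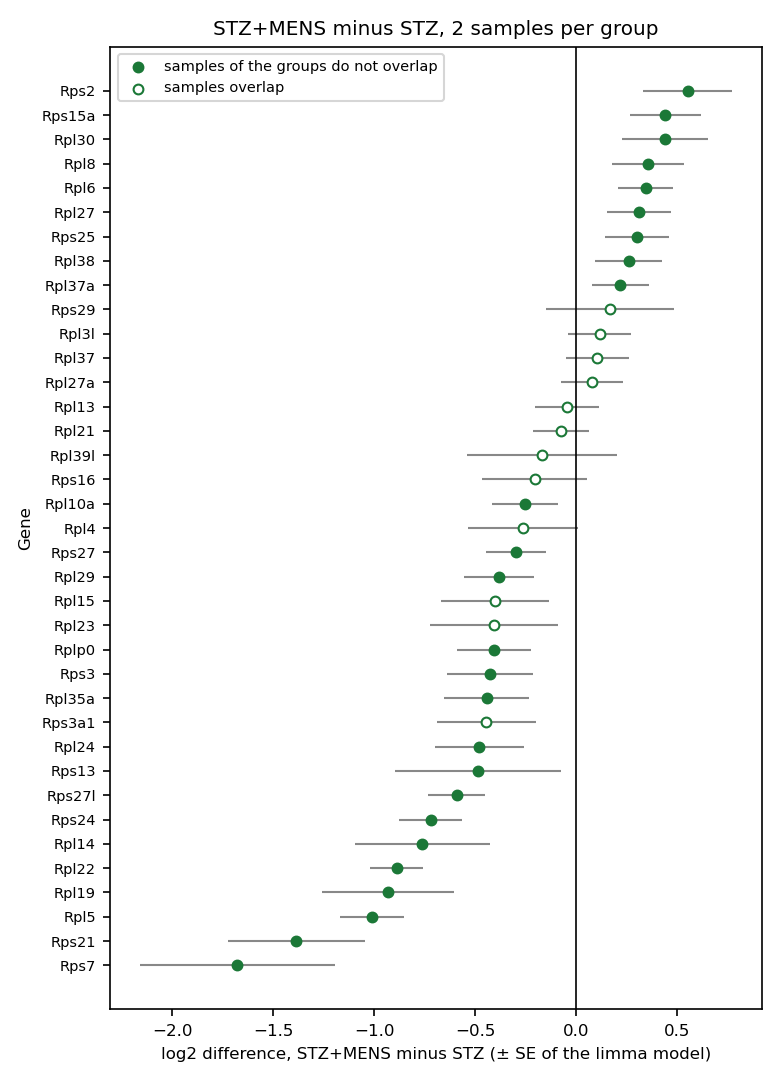
Log2 difference between STZ+MENS and STZ for each of the 37 ribosomal protein genes (points) with the SE of the limma model (bars), filled where the 2 groups' samples do not overlap. The differences run from -1.68 for Rps7 to 0.55 for Rps2, with 24 genes below 0.

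The members' values differed between the 2 STZ+MENS samples. Taken as the members' median difference from the Control mean, sample 1 stood at -0.26 and sample 2 at -0.04, against 0.01 and -0.06 in the STZ samples and 0.01 and -0.01 in the Control samples. Without STZ+MENS sample 1 the median difference between STZ+MENS and STZ was -0.09, and without sample 2 it was -0.43. Without STZ sample 1 it was -0.09. With STZ+MENS sample 2 left out, Rps7, Rps21 and Rpl19 differed by -2.36, -1.93 and -1.40 between STZ+MENS and STZ. Rpl5, Rpl22 and Rps24 differed by -0.99, -0.88 and -0.83, and Rps2 and Rpl30 the other way, by 0.82 and 0.73. That fit assumed that the lone STZ+MENS sample varied like the other groups. Rpl22 and Rpl5 differed little between the STZ+MENS samples, and Rps7, Rpl39l, Rps21, Rpl19 and Rpl4 differed most among the members below 0. Rpl4, which lines the exit tunnel, had 16.01 and 16.82 in STZ+MENS, against 16.74 and 16.62 in STZ.

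STZ+MENS livers set against Control livers had 25 of 37 ribosomal protein genes lower (67.6%, beside 47% of all genes), with a median difference of -0.18, beside 0.02 over all genes. At an unadjusted p under 0.05, 5 members were lower, beside 9.18% of all genes, and 0 were higher, beside 8.82%. None of the 37 was lower by 2-fold or more, beside 2.19% of all genes. Rpl5 differed by -0.64 ± 0.16 and Rpl22 by -0.53 ± 0.13, with adjusted p of 0.137 and 0.139 in limma. Rps27 stood at 8.52 and 8.78 in STZ+MENS, against 9.22 and 9.19 in Control (-0.55 ± 0.15, adjusted p = 0.153 in limma), and lay lower in STZ too, at 8.98 and 8.91. Rpl19 differed by -0.96 ± 0.33, Rps24 by -0.43 ± 0.16 and Rpl35a, a large-subunit protein, by -0.47 ± 0.21. Without STZ+MENS sample 1, Rpl19 and Rpl35a differed by -0.48 and -0.20.

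The samples did not overlap for 15 members lower in STZ+MENS than in Control, beside 23% of all genes, and for 3 that were higher, beside 25.6%. The 3 were Rps15a (0.31 ± 0.18), Rpl8 (0.21 ± 0.18) and Rps27l (0.15 ± 0.14). Rps27l and Rps21 stood nearer to Control in STZ+MENS than in STZ. Rps21 differed by -0.09 ± 0.34 between STZ+MENS and Control, with the STZ+MENS samples on either side of the Control samples. Without STZ+MENS sample 1 the members' median difference from Control was -0.04, and without Control sample 1 it was -0.09.

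**Figure D4:**
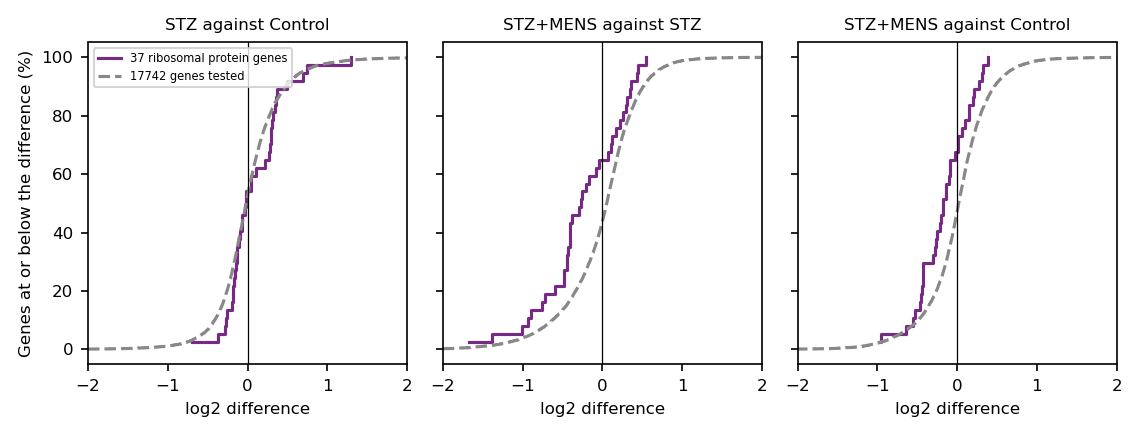
Share of genes at or below each log2 difference, for the 37 ribosomal protein genes (solid line) and all measured genes (dashed line) in the 3 comparisons; the axis ends at 2 in either direction. The lines nearly coincide for STZ against Control, with medians of -0.03 and -0.02, and for STZ+MENS against STZ the middle of the solid line lies left of the dashed line, with medians of -0.26 and 0.06.

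Some members differed little between the groups. Rpl37, a zinc-binding large-subunit protein, had 14.38 and 14.11 in STZ+MENS, 14.09 and 14.19 in STZ and 14.18 and 14.28 in Control. Rpl3l, a paralog of Rpl3 best known from striated muscle, had 9.76 and 9.70 in STZ+MENS, 9.72 and 9.50 in STZ and 9.61 and 9.82 in Control. On this brightest probe its differences were within 0.12 in the 3 comparisons, each smaller than its SE of 0.16, but its second probe gave 0.56 ± 0.30 between STZ and Control and 0.44 ± 0.30 between STZ+MENS and Control. Rpl13 differed by -0.05 ± 0.16 between STZ+MENS and STZ. Both groups lay below Control without overlap in Rpl13, by -0.13 ± 0.16 for STZ and -0.18 ± 0.16 for STZ+MENS. The gap was very narrow, with 9.439 in STZ sample 1 and 9.436 in STZ+MENS sample 2, against 9.442 in Control sample 1. Rpl23, an MDM2-binding protein, had wider values, 12.43 and 13.07 in STZ+MENS, against 12.87 and 13.45 in STZ (-0.41 ± 0.32), and its samples overlapped. Rps3, at the mRNA's entry, had 8.69 and 9.13 in STZ+MENS, against 9.42 and 9.26 in STZ (-0.42 ± 0.21), without overlap.

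Samples of a group lay furthest apart for Rps7, Rps13, Rpl39l, Rps21, Rpl14, Rpl19, Rpl23 and Rps29, whose SDs between samples were 0.41 to 0.67. Rpl39l, a paralog of Rpl39 best known from testis, differed by up to 1.31 between the 2 arrays of a sample, and its SD between arrays, 0.76, exceeded that between samples, 0.50. Rps13 had 9.48 and 9.47 in STZ+MENS and 10.18 and 9.75 in STZ, against 10.28 and 8.97 in Control. The 2 Control samples of Rps13 thus enclosed both STZ+MENS samples and both STZ samples. Its near-equal STZ+MENS values are means of arrays that lay apart, 9.898 and 9.065 in sample 1 and 9.935 and 9.015 in sample 2. The SD of Rps13 between arrays was 0.41.

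The probes of a gene did not always give the same difference. Rps7, which helps to mature the small subunit's RNA and also binds MDM2, had 10.77 and 12.15 on its brightest probe in STZ+MENS, against 13.55 and 12.72 in STZ (-1.68 ± 0.48). Its second probe, of similar brightness, had 13.06 and 12.59 in STZ+MENS, against 12.20 and 12.53 in STZ, a difference of 0.46 ± 0.21 in a fit of all probes. Against Control the second probe differed by 0.70 ± 0.21 in STZ+MENS, and the brightest by -0.97 ± 0.48. No direction can therefore be given for Rps7 as a gene, and its place among the members lower by 2-fold rests on 1 of 2 probes.

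Rpl21 differed the other way round, with -0.08 ± 0.14 between STZ+MENS and STZ on its brightest probe and -0.77 ± 0.19 on its second, which was nearly as bright. On the second probe Rpl21 had 7.99 and 7.90 in STZ+MENS, against 8.89 and 8.55 in STZ and 8.49 and 8.84 in Control. The second probe of Rpl30 gave -0.17 ± 0.14 for STZ against Control and 0.09 ± 0.14 for STZ+MENS against STZ, with the signs of the brightest probe and smaller sizes. The second probe of Rps15a was dim, with a mean intensity of 97.5, and differed by -0.30 ± 0.17 between STZ+MENS and STZ, the opposite sign. Rpl27a, Rpl37 and Rpl3l had no probe with an unadjusted p under 0.05. Ribosomal protein genes have many processed pseudogenes of near-identical sequence, and what each probe binds was not tested.

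**Figure D5:**
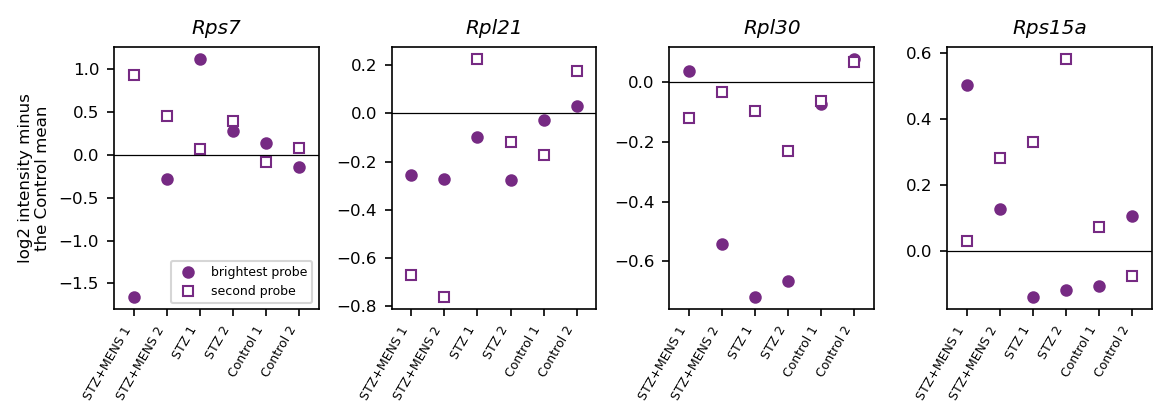
Log2 intensity minus the probe's own Control mean in each liver sample for the brightest (filled circles) and second probe (open squares) of 4 ribosomal protein genes. The 2 probes of Rps7 lie on opposite sides of the Control mean in STZ+MENS, and the second probe of Rpl21 lies below the first there.

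Genes that build ribosomes were listed beside the members, from lists chosen with earlier results of these data known. Of 45 ribosome biogenesis genes 33 were measured, and none of these passed over all genes in limma. Between STZ and Control 5 stood higher at an unadjusted p under 0.05 and 0 lower, beside 8.48% and 8.49% of all genes, with a median of 0.21. Among them were Gnl3, a nucleolar GTPase (0.51 ± 0.15), and Bop1, a large-subunit assembly factor (0.56 ± 0.21). Between STZ+MENS and STZ 7 stood lower and 1 higher, beside 12.8% and 12.6% of all genes, with a median of -0.11. Ltv1, which exports the small subunit, had 11.66 and 11.69 in STZ+MENS, against 12.45 and 12.43 in STZ (-0.77 ± 0.13, adjusted p = 0.0595 in limma). Nmd3, which exports the large subunit, differed by -0.65 ± 0.15 and Rsl1d1 by -1.08 ± 0.28. Ubtf, a factor of ribosomal RNA transcription, was the 1 that was higher (0.84 ± 0.22).

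Of 17 other mRNAs known for a terminal oligopyrimidine start, 14 were measured. Between STZ+MENS and STZ, 5 stood lower and 3 higher at an unadjusted p under 0.05, beside 12.8% and 12.6% of all genes. The median of the 14 was -0.26. Eif3e, a subunit of an initiation factor, had 8.44 and 10.17 in STZ+MENS, against 11.71 and 10.98 in STZ (-2.04 ± 0.57). Nap1l1, a histone chaperone, differed by -0.94 ± 0.23, and Eef2, the translocating elongation factor, by 0.48 ± 0.17. Among 19 genes of mTORC1 and its arms, 4 stood lower and 4 higher in the same comparison and at the same threshold, beside the same 12.8% and 12.6%. Larp1, which binds the oligopyrimidine start, differed by -1.29 ± 0.39, Mtor, the kinase itself, by -0.75 ± 0.28, Rptor, its substrate-binding partner, by 0.55 ± 0.16, and Tsc1, an inhibitor of the complex, by 0.57 ± 0.14. In neither list did a gene pass over all genes in limma, and the median of the mTORC1 list was -0.07.

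Of 8 genes listed as ribosome components that the symbol rule leaves out, 3 were measured, with a median of 0.20 between STZ+MENS and STZ. Fau, the precursor of a small-subunit protein, had 13.61 and 13.54 in STZ+MENS, against 13.43 and 13.30 in STZ and 13.29 and 13.36 in Control (0.20 ± 0.14 between STZ+MENS and STZ). Rpl7l1, a large-subunit assembly factor related to Rpl7, differed by 0.01 ± 0.17, and the dim Rpsa by 0.29 ± 0.42. Of 69 mitochondrial ribosomal protein genes, 48 (69.6%, beside 43.6% of all genes) were lower in STZ+MENS than in STZ, with a median of -0.15. At an unadjusted p under 0.05, 17 were lower and 5 higher, beside 12.8% and 12.6% of all genes. Whether the cytosolic and mitochondrial sets differ was not tested.

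Cell type markers bear on bulk liver, where fewer cells of a type and less RNA per cell cannot be told apart. Of 12 hepatocyte markers 9 were measured, and among them Alb, the main plasma protein of liver, had a mean intensity of 497760. Summed hepatocyte marker intensity was 3029000 and 2987000 in STZ+MENS, 3105000 and 2968000 in STZ, and 3417000 and 3326000 in Control. Between STZ+MENS and STZ, 5 of the 9 were above 0, beside 56.4% of all genes, with a median of 0.01. Of the 9, 1 had an unadjusted p under 0.05, beside 25.4% of all genes. That gene, Apob, with a very long mRNA, had 14.21 and 15.84 in STZ+MENS, against 17.43 and 16.85 in STZ and 17.31 and 17.26 in Control. STZ+MENS sample 1, lowest in Apob, was also lowest on the brightest probes of Rps7, Rps21, Rpl19 and Rpl4. On the second probe of Rps7 it was the highest of all samples, at 13.06. The part of RNA quality or cell makeup in these values was not tested. The labels' protocol says that RNA integrity was measured, and its values were not used here.

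Markers of other cells varied beside the members. Between STZ+MENS and STZ, 56.4% of all genes were above 0 and 43.6% below. Above 0 were 8 of 8 lymphocyte markers with a median of 0.29, and 6 of 9 macrophage markers with a median of 0.09. So were 7 of 9 stellate cell and fibroblast markers, 5 of 7 endothelial markers, 4 of 5 neutrophil markers and 3 of 8 cycling cell markers. Below 0 were 6 of 7 cholangiocyte markers, with a median of -0.19. Between STZ and Control, 7 of 7 cholangiocyte markers were above 0 with a median of 0.36, beside 47.6% of all genes. The 8 cycling cell markers had a median of 0.51 there and split. Mcm5, Mcm3, Top2a and Rrm2 differed by 2.41, 2.28, 0.99 and 0.87. Cdk1, Mki67, Birc5 and Bub1 differed by 0.14, 0.12, -0.01 and -0.155. Of 9 erythroid markers 2 were measured, Alas2 and Slc4a1, and their summed intensity was 104800 and 9330 in STZ+MENS samples 1 and 2, against 32620 and 55360 in STZ and 79640 and 95700 in Control. Summed macrophage marker intensity was 70310 and 110100 in STZ+MENS, against 72640 and 69720 in STZ. The part of these cells in the ribosomal protein values was not tested.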

How the data were processed

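Total RNA from liver was amplified, labelled with Cy5 and hybridised to Phalanx Mouse OneArray arrays, per the labels' protocols. The deposited table holds linear intensities for 26423 probes on 12 arrays. All arrays shared the highest value, and medians lay between 768.89 and 770.33, the form that quantile normalization leaves. Between 44 and 52 values per array were below 0. No source used here gives the authors' background or normalization steps. The version limma 3.30.7 is listed in the submitters' processing notes without its role. A change in the total amount of mRNA cannot be seen in values scaled in this way.

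Values below 0 were set to 0, 50 was added and log2 was taken. Probes were named from the platform annotation and updated through a RefSeq table of GRCm38.p6: 20377 probes had 1 symbol, 0 several and 6046 none. RefSeq held the symbol of 18213 probes as it stood, a synonym renamed 2126, and 38 were left as the platform has them. Values of a sample's 2 arrays were averaged, and limma 3.58.1 in R 4.3.3 fitted all 3 groups with 3 residual and 3.19 prior degrees of freedom. Tests were two-sided, with Benjamini-Hochberg adjustment over 17742 genes. With 2 samples per group, the smallest p of an exact permutation test is 0.33, and none was used. The fit was tested on simulated data. Plots used Python 3.11.15 with matplotlib 3.10.9.

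The members and lists were chosen with earlier results of these data known. Members named by value were, per comparison and direction, up to 6 with the smallest p among those without overlap, and a panel of 18 genes, of which 9 were measured. Other genes and members are named for their probes, levels or lists, chosen after their values were seen. The number of samples, 2 per group, limits the precision. Sample numbers gave no pairing: deviations of sample 1 correlated at -0.07 to 0.005 between groups.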

Additional observations from a re-analysis of the deposited data

How the results depend on the processing

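Counts of ribosomal protein genes called were recomputed under 18 other settings and their median differences under 16, leaving out the spread estimate and the 2-group fit. With all 12 arrays fitted and the sample as a random block, 2 members were called for STZ against Control. The count was 7 for STZ+MENS against STZ and 2 for STZ+MENS against Control. In all, 1204, 3079 and 1336 of 17742 genes were called in these comparisons, shares near or above those of the 37 members. That fit counts the arrays of a sample toward its degrees of freedom, with 2 samples per group as before. With STZ and Control fitted alone, 1 of 37 members was called, among 181 of 17742 genes. Leaving out each sample gave 0 to 1 member called for STZ against Control and 0 to 6 for STZ+MENS against STZ. It gave medians of -0.427 to -0.089 for STZ+MENS against STZ, without STZ+MENS samples 2 and 1, and medians of -0.256 to -0.038 for STZ+MENS against Control, without STZ+MENS samples 2 and 1. The cause of these shifts was not tested. With the sample number as a replicate block, 0 members were called in each comparison, as without it. The offset, the filter on dim genes, the mean of all probes of a gene and the scaling left the counts at 0 and moved no median by more than the SD of 0.095 between samples of a group. The median for STZ against Control, near 0 throughout, was 0.042 with the mean of all probes and 0.036 without Control sample 1. The direction of the members named by p did not turn under these alternatives, but second probes had the opposite sign to the brightest for Rps7 and Rps15a in STZ+MENS against STZ, and for Rpl21 in STZ against Control (0.05 against -0.19).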
